A study of Rattus norvegicus with 3 samples.

Results

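Early Hmga2-positive interphase radial glia were picked out of 3 single-cell libraries of embryonic rat cerebral cortex by a rule on raw counts of unique molecular identifiers (UMIs), where 1 UMI stands for 1 captured RNA molecule. A member carried at least 5 UMIs summed over the progenitor genes Sox2, Pax6, Hes1 and Hes5, and at least 1 UMI of Hmga2. It carried at most 1 UMI of Eomes, the intermediate progenitor factor, and at most 2 UMIs of the neuronal genes Neurod2 and Neurod6. Fewer than 10 UMIs came from the mitotic genes Top2a, Cenpf, Mki67 and Ccnb1, at most 1 from the glial genes Aldoc, Slc1a3 and Mt3, and 0 from the patterning genes Fgf8, Fgf17 and Zic4. The rule found 343 members among 15327 kept cells, those with a minimum of 1000 genes and a mitochondrial share no higher than 10%. Members were thus chosen by the measured UMI counts of these 18 genes, so their levels, and every contrast with cells on the other side of a gate, are descriptions.

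The cells were primary cells of wildtype rat embryos (Rattus norvegicus), taken from the cerebral cortex and dissociated with papain, with 1 droplet library under each of the labels E14, E16 and E18 (embryonic days 14, 16 and 18). No group carried a transgene or a treatment, and strain, litter and number of embryos are not given in the sources used here. The protocol text also describes expansion culture, oligonucleotide multiplexing and antibody sorting of human cells, which do not match primary rat cells, and it is not known which of those steps these libraries went through. With 1 library a label, no difference has a replicate check and no p-value is given; each interval below is an exact 95% interval that covers counting error only.

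Radial glia are the neural stem cells of the embryonic cortex: they line the ventricle, keep their identity through Sox2, Pax6 and Notch signalling to Hes1 and Hes5, and divide to give more radial glia, intermediate progenitors or neurons. Their nuclei move away from the ventricle in G1, replicate DNA there and return for mitosis, so an interphase group spans cells before, in and after S phase. Hmga2, an architectural chromatin protein repressed by let-7 microRNAs, is known from other work to be high in young neural stem cells and to decline with age, while nuclear factor I proteins and astroglial genes increase. D-type cyclins such as Ccnd1 drive passage through G1.

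The libraries held 62740631, 80974234 and 73727823 UMIs in 7100, 6707 and 6937 barcodes in label order, and 4444, 5193 and 5690 cells were kept. The stage gene Hmga2 went against the labels: it had a UMI in 66.0% of the kept cells under label E16, but in 8.44% under label E18 and 1.58% under label E14. Those shares pool cell types that the libraries held in unlike numbers, with 182 neurons under label E16, 1633 under label E18 and 2950 under label E14. Among interphase progenitors Hmga2 had a UMI in 616 of 793 cells under label E16, 83 of 621 under label E18 and 21 of 147 under label E14. The shares under labels E18 and E14 are close, so they do not order those libraries. Nfix and Zbtb20, which are known to increase as the cortex matures, put the library labelled E14 last: in neurons Nfix was at 119 CPM (UMIs of a gene or list scaled to 1000000 UMIs in all) under label E16, 494 under label E18 and 701 under label E14, and Zbtb20 at 25.5, 58.7 and 87.2 CPM. Not every such gene did so. In the late interphase radial glia described below, Nfia and Nfib were slightly lower under label E14 than under label E18. "Early" therefore describes gene content here and not a label, and directions below are between libraries as labelled. Libraries shared 17, 13 and 12 barcodes in pairs and 0 in all. Globin was 48729 CPM over the kept cells labelled E16, against 1748 in those labelled E14 and 4094 in those labelled E18.

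Nearly all members came from the library labelled E16. It gave 336 members of 5193 kept cells, or 6.47% (Clopper-Pearson interval 5.82 to 7.17). The library labelled E18 gave 7 of 5690, or 0.123% (0.0495 to 0.253). In the library labelled E14, 0 of 4444 cells met the rule, which allows a share of up to 0.0675% (3 counts of the total, the floor used for every count of 0 below).

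The progenitor gates on stem, Eomes, Neurod and patterning genes alone passed 286 cells labelled E14, 2280 labelled E16 and 1386 labelled E18. Under 10 mitotic UMIs were found in 147, 793 and 621 of these. With at most 1 glial UMI as well, 16, 458 and 93 remained. Members made up 73.4% (69.1 to 77.4) of those 458 cells labelled E16, 7.53% (3.08 to 14.9) of the 93 labelled E18, and 0 of the 16 labelled E14. The glial gate thus kept 16 of 147 interphase cells labelled E14 and 93 of 621 labelled E18, against 458 of 793 labelled E16. Of those 93 cells labelled E18, 86 had 0 Hmga2 UMIs.

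**Figure D1:**
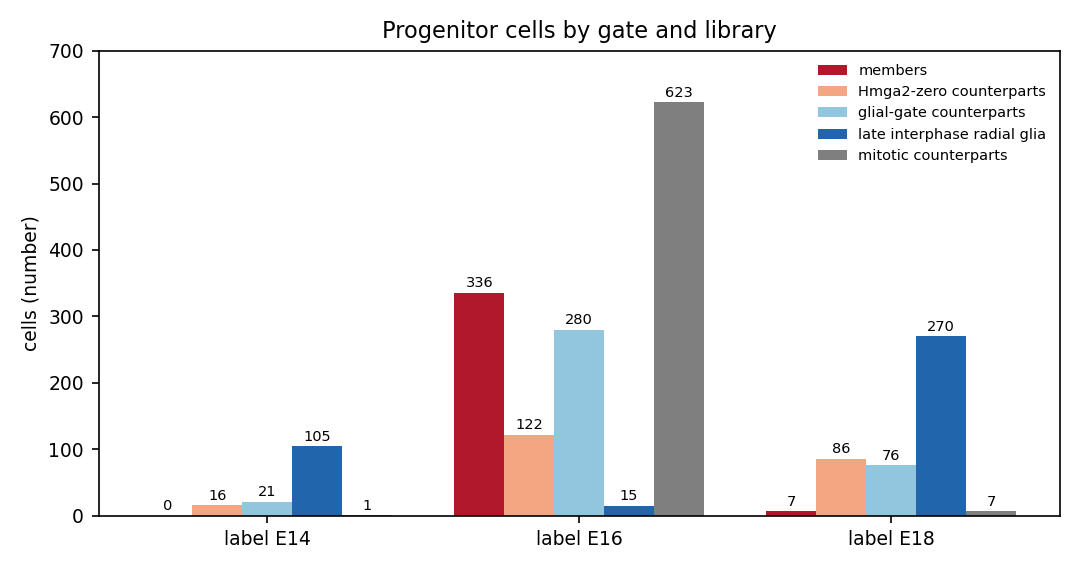
Number of cells (vertical axis) in 5 groups of progenitors in each library: members, and cells that met the same progenitor gates but had 0 Hmga2 UMIs, 2 or more glial UMIs with Hmga2 (glial-gate counterparts), 5 or more glial UMIs without Hmga2 (late interphase radial glia), or 10 or more mitotic UMIs. The 336 members and 623 mitotic counterparts labelled E16 stand against 0 and 1 labelled E14 and 7 and 7 labelled E18.

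Most members passed the Hmga2 gate by small numbers of molecules, and fewer lay at the edge of the mitotic and stem gates. Hmga2 had a median of 2 UMIs a cell (range 1 to 15) in members labelled E16, with 115 cells at 1, 89 at 2, 57 at 3 and 75 above 3. Just outside, 122 cells that met every other gate had 0 Hmga2 UMIs. The mitotic sum had a median of 4 UMIs. It was 8 or 9 in 44 members, and 10 or 11 in 37 cells just outside. The glial sum was 0 in 168 members and 1 in the other 168, against 101 cells outside with exactly 2. The stem sum was 5 or 6 in 104 members, and 3 or 4 in 86 cells outside.

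Within the stem sum, Sox2 gave the most molecules. Sox2, the pan-neural-progenitor factor, had a median of 4 UMIs and was at 0 in 7 members. Pax6, the dorsal progenitor factor, and the Notch effectors Hes1 and Hes5 each had a median of 1, and were at 0 in 82, 116 and 160 members. The 336 members summed to 4078647 UMIs, with a median of 11632 UMIs a cell (3870 to 44660), 3290 detected genes and 3.65% mitochondrial UMIs.

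The label was checked against its markers Hmga2, Sox2, Pax6, Hes5 and Ccnd1, of which the rule did not use Ccnd1. To set shares of cells side by side, each cell was thinned to 3000 UMIs, and neurons of the same library (at least 5 Neurod2 and Neurod6 UMIs, at most 1 UMI of the stem genes and at most 1 of Eomes) served as the background. Ccnd1 was found in 50.6% (45.1 to 56.1) of members and 2.78% (0.908 to 6.36) of neurons at that depth. Without thinning the shares were 82.4% and 4.95%, at median depths of 11632 and 9358.5 UMIs. Hmga2 was required of members by the rule, which fixed their share, so no contrast is drawn from it. It kept a UMI in 47.0% (41.6 to 52.5) of members and 2.78% (0.908 to 6.36) of neurons after thinning. Before thinning it had one in 100% and 5.49%. Sox2 kept a UMI in 69.6% of members, Pax6 in 35.1% and Hes5 in 20.5%; both groups were gated on these genes, so no contrast is drawn from them. Vim, the intermediate filament of radial glia and outside the rule, was found in 99.7% of members against 47.8% of neurons. Of the 5 markers, Ccnd1 alone is outside the rule. In members labelled E16 its values did not go against the name, but the 7 members labelled E18 had 0 Ccnd1 UMIs.

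Markers of other cell types were present in the 336 members at levels that differed by class. The 8 GABAergic markers summed to 8.83 CPM with Gsx2 and Nkx2-1 at 0, and 21 of those UMIs sat in 1 cell. The 8 markers of the cortical hem, a Wnt-secreting midline organizer, summed to 16.7 CPM with Wnt2b at 0, and 1 cell held 47 of them. Choroid plexus (14 CPM; Folr1, Clic6 and Htr2c at 0), endothelial (2.45 CPM; Pecam1, Cdh5 and Flt1 at 0) and microglial markers (1.96 CPM; C1qb, Cx3cr1, Tyrobp and P2ry12 at 0) were near 0. Excitatory neuron markers summed to 260 CPM, with 3 or more UMIs in 161 of the 336 members, and intermediate progenitor markers to 138 CPM, with 3 or more UMIs in 84. Of 7082 CPM of globin, 26606 UMIs came from 1 member with 44660 UMIs in all, and 565 CPM remained without it. Low counts were widespread, as the 8 erythroid markers had 3 or more UMIs in 311 of the 336 members.

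Other progenitor genes, outside the rule, were measured in the members as follows. Lhx2, a selector of cortical identity, stood at 662 CPM (638 to 688), Id4 at 1726 CPM and Vim at 2115 CPM. Emx1 and Emx2, dorsal telencephalic factors, stood at 146 and 141 CPM. Sox9 stood at 218 CPM and Sox3 at 114 CPM. These are levels per UMI total, not per length, so they do not rank the genes against each other.

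Among the genes tied to early timing, the members carried Hmga1, the paralogue of Hmga2, at 332 CPM (314 to 350) against 60.7 CPM in neurons of the same library. Igf2bp1, an RNA-binding protein of young progenitors, stood at 25 CPM (20.4 to 30.4), Igf2bp2 at 109 CPM and Igf2bp3 at 49.3 CPM. Mycn, a growth factor-responsive transcription factor, was at 119 CPM in members and 103 CPM in neurons. Lin28b, which blocks let-7 maturation, had 27 UMIs in all, 6.62 CPM (4.36 to 9.63), an interval that holds the 6.50 CPM of neurons. Lin28a had 0 UMIs, which allows up to 0.736 CPM, and Trim71 had 1.

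The first comparison in the same library was with the 623 mitotic counterparts, which met the same stem, Hmga2 and glial gates and held 10 or more UMIs of the 4 mitotic genes. Of 5632 genes of at least 20 CPM in the mean of both groups, 152 (2.7%) differed 2-fold or more, 9 (0.16%) higher in members and 143 (2.54%) lower. All 23 other mitotic genes on a list were over 2-fold lower in members, with a median log2 CPM ratio (1 CPM added) of -2.51. Ube2c, the ubiquitin-conjugating enzyme of mitotic exit, was at 37.8 CPM in members and 666 CPM in mitotic counterparts. Aurka (6.13 against 111 CPM) and Plk1 (6.87 against 116 CPM) are mitotic kinases. Also among the 10 lowest were Nusap1, Prc1, Hmmr, Sgo2, Kif20b and Arl6ip1.

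On the higher side stood genes that license and copy DNA. Of 26 replication genes, 24 were higher in members and 2 lower, 7 of them 2-fold or more higher, with a median log2 ratio of 0.60 against -0.08 over all genes. Of all 9483 genes of at least 5 CPM, 3695 were higher, 23 of them 2-fold or more. Ung, the uracil-DNA glycosylase of S phase, was at 172 CPM (160 to 186) in members and 31.9 CPM in mitotic counterparts, a log2 ratio of 2.40. Mcm6, a subunit of the replicative helicase, stood at 339 and 157 CPM, and Mcm2, Mcm3, Mcm4 and Mcm5 had log2 ratios from 0.94 to 1.03. Loading factors of that helicase were higher as well, Cdc6 at 64.5 against 16.4 CPM and Cdt1 at 57.4 against 22.9 CPM. The 2 exceptions were subunits of ribonucleotide reductase: Rrm1 had a log2 ratio of -0.43 and Rrm2 one of -0.30.

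Cyclins, CDKs and CDK inhibitors were split, with 8 higher and 6 lower of 14 and a median log2 ratio of 0.04. Ccne1, cyclin E1, was at 87.3 CPM in members and 47.5 CPM in mitotic counterparts, and E2f1, a transcription factor of S phase entry, at 49.5 and 20.9 CPM. Ccnd1 stood at 239 and 219 CPM and Ccnd2 at 356 and 391 CPM. Of the CDK inhibitors, Cdkn2d was lower in members at 10.8 against 39.2 CPM and Cdkn1b at 100 against 156 CPM. Median depth was 11632 UMIs in members and 15590 in mitotic counterparts.

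Promoters of these genes are shown because replication and mitotic genes stood on opposite sides of the comparison. The 250 bases before each gene's start, from the RefSeq table of build GRCr8 matched by symbol, were searched on both strands for TTTNGCGC, an E2F-type site, and TTTGAA, the core of the cell cycle genes homology region. Overlapping matches of a motif counted once. Both motifs were chosen after the gene differences were known. TTTNGCGC lay in 7 of 22 replication genes in the table (31.8%), in 1 of 19 mitotic genes (5.26%) and, by gene, in 1.17% of all 27457 genes in the table. TTTGAA lay in 11 of the 19 mitotic genes (57.9%), in 3 of the 22 replication genes (13.6%) and in 17.2% of all genes. Stretches of 60 bases around the match follow, 5′ to 3′ on the gene's strand with the motif in capitals, for those that held it among the genes looked up singly, which were Ung, Mcm2, Mcm3, Mcm4, Mcm5 and Mcm6 for the first motif and Ube2c, Aurka, Nusap1, Plk1, Prc1 and Hmmr for the second: Mcm6 (chr13:42404458-42404517, minus strand, motif from 139 bases before the start), Mcm2 (chr4:122918095-122918154, minus strand, from 14), Mcm5 (chr19:13488574-13488633, plus strand, from 213), Prc1 (chr1:143659421-143659480, plus strand, from 18) and Hmmr (chr10:25665228-25665287, minus strand, from 46).
Mcm6: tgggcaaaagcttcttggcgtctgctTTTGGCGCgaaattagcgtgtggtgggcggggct
Mcm2: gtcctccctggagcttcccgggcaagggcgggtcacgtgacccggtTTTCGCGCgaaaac
Mcm5: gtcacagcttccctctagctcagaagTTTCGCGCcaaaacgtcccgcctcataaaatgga
Prc1: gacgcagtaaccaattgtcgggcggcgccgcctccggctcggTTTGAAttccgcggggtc
Hmmr: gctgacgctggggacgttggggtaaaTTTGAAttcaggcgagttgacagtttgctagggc
Ung and Mcm3 held no TTTNGCGC in this window, and Aurka, Nusap1 and Plk1 no TTTGAA. Mcm4 and Ube2c had no entry. A match is a description of the letters and not a measured site.

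Other groups of genes differed from mitotic counterparts by less. All 15 glycolysis and hypoxia genes of at least 5 CPM were higher in members, with a median log2 ratio of 0.39 and none past 2-fold. Bnip3, a hypoxia-induced mitophagy receptor, was at 142 against 77.1 CPM, Pdk1, which diverts pyruvate from mitochondria, at 38.5 against 21.5 CPM, and Ldha at 1494 against 1093 CPM. In contrast 12 of 14 cortical field factors were lower, with a median of -0.38 (5788 of all 9483 genes were lower), among them Emx2 (141 against 219 CPM) and Nr2f1 (153 against 219 CPM). Of 18 radial glia identity genes, 14 were lower with a median of -0.33, and Sox9 was at 218 against 357 CPM. Dtl, Hells and Rnf151 completed the 10 highest genes.

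**Figure D2:**
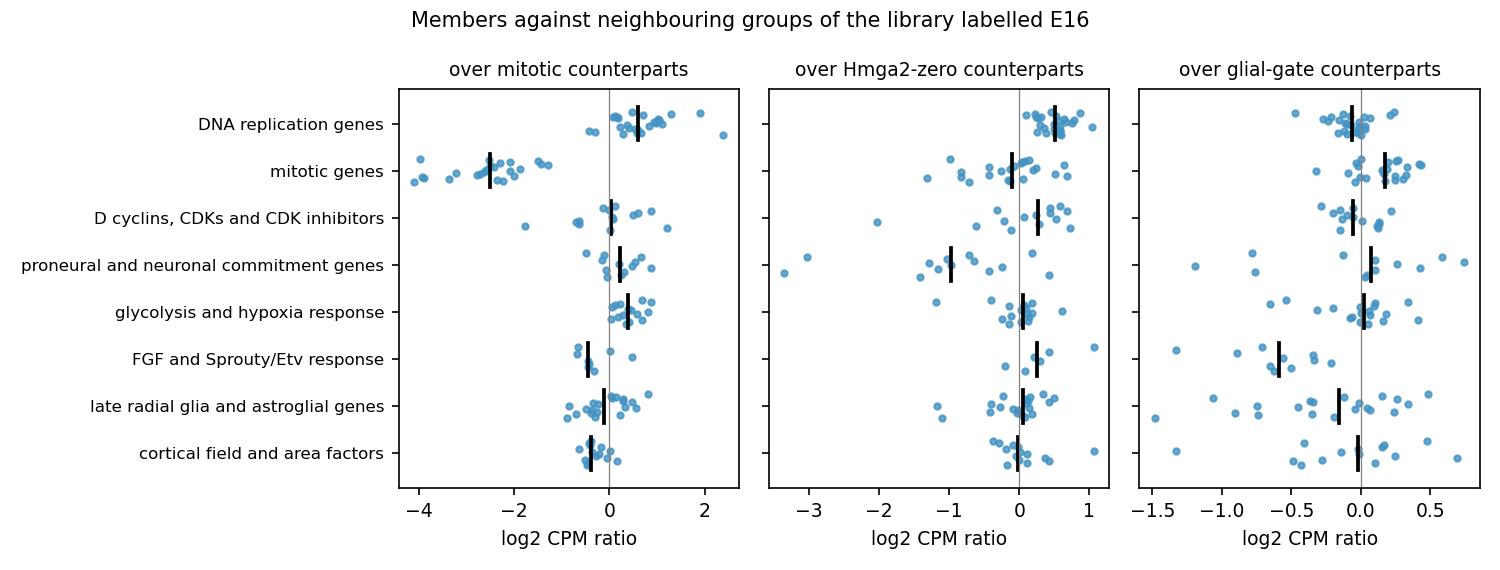
Log2 CPM ratio (horizontal axis) of members labelled E16 over their mitotic, Hmga2-zero and glial-gate counterparts of the same library; each point is a gene of at least 5 CPM and the bar is the list's median. Replication genes lie mostly above 0 against the first 2 groups (24 and 26 of 26, medians 0.60 and 0.51) and around 0 against the third (-0.06), and mitotic genes lie far below 0 only against mitotic counterparts (-2.51).

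The 122 Hmga2-zero counterparts labelled E16 met every other gate, so they differ from members by the Hmga2 gate alone. They were shallower, with a median of 9961 UMIs a cell. Of 5396 genes, 46 (0.852%) differed 2-fold or more, 15 (0.278%) higher in members and 31 (0.574%) lower. Genes of neuronal commitment were lower in members: 11 of 13, 6 of them 2-fold or more, with a median log2 ratio of -0.97 against 0.06 over all genes. Of all 9443 genes of at least 5 CPM, 3892 were lower, 165 of them 2-fold or more. Stmn2, a microtubule regulator of young neurons, was at 23.5 CPM in members and 248 CPM in the counterparts. Tubb3, the neuronal tubulin, was at 128 and 342 CPM. Hes6, a promoter of neuronal differentiation, was at 217 and 425 CPM, and Gadd45g at 66.0 and 162 CPM.

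Markers of other classes and globin moved with these values, and their part was not tested beyond the settings below. Excitatory neuron markers summed to 781 CPM and GABAergic markers to 92.4 CPM in the counterparts, against 260 and 8.83 CPM in members. Cajal-Retzius markers were at 45.8 against 5.88 CPM. Globin was at 40226 CPM, with 2 counterpart cells over 1000 globin UMIs, against 7082 CPM. Sst, somatostatin, had 0 UMIs in members and 307 UMIs (238 CPM) in 2 counterpart cells, which makes it at least 324-fold lower in members but rests on those 2 cells. Without cells that held 3 or more UMIs of GABAergic, Cajal-Retzius, hem, choroid, vascular, microglial or fibroblast markers, 25 genes were past 2-fold, and the log2 ratio of Stmn2 went from -3.35 to -0.45, that of Tubb3 from -1.41 to -0.65 and the median of the neuronal commitment list to -0.65. Gadd45g, at -1.29, had a ratio of -1.47 there. At a mitochondrial maximum of 5% the ratio of Stmn2 was -0.44 and that of Tubb3 -0.48, and with the rule on thinned cells they were -1.91 and -0.58, with list medians of -0.66 and -0.40. Ina, Mllt11, Rtn1, Stmn3 and Mfap4 were the other lowest genes, along with Mt1, whose direction turned.

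Replication genes were higher in members than in Hmga2-zero counterparts, 26 of 26, 1 of them past 2-fold, with a median log2 ratio of 0.51. Pola1, the catalytic subunit of DNA polymerase alpha, was at 83.6 and 40.4 CPM, Mcm2 at 161 and 93.9 CPM, and Gmnn, geminin, at 263 and 158 CPM. The median was 0.33 without cells of other classes. It was 0.16 where the rule was applied to cells thinned to 5000 UMIs, which left 16 genes past 2-fold. Only the gates used the thinned counts there, and the levels still came from all UMIs. The groups also changed, to 287 members and 197 counterparts, so depth and membership cannot be told apart in that value. Under that rule the log2 ratio of Pola1 went from 1.03 to 0.05, that of Sdf2l1 from 0.69 to 0.07, and that of H4f3 turned from 0.75 to -0.27. Dtl, Tcof1, Mcm5, Rif1 and Zfhx4 were the other highest genes. Heterochronic genes other than Hmga2 differed little: 7 of 7 were higher, beside 5551 of all 9443 genes, with a median of 0.24 and none past 2-fold, with Hmga1 at 332 against 259 CPM. Ccnd1 stood at 239 CPM in members and 159 CPM in Hmga2-zero counterparts.

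The 280 glial-gate counterparts labelled E16 shared Hmga2 and interphase with members but held 2 or more UMIs of Aldoc, Slc1a3 and Mt3. Of 5560 genes, 14 (0.252%) differed 2-fold or more, 6 (0.108%) higher in members and 8 (0.144%) lower. The count was 62 with the rule on thinned cells, 25 by the mean of cell CPM and 8 without cells of over 1000 globin UMIs. Ptprz1, a receptor phosphatase of radial glia and glial precursors, was at 96.1 CPM in members and 181 CPM in the counterparts. Its ligand Ptn was at 926 and 1643 CPM. Epha5, Fzd8, Tubb2a, Kmt2c, Ntrk2, Sparc, Peli2 and Ncam1 followed, with log2 ratios from -0.96 to -0.63.

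FGF response and radial glia identity genes stood on the lower side in members. All 10 FGF genes were lower, with a median log2 ratio of -0.59 against -0.06 over all genes, of which 5979 of 9545 were lower, and 1 was past 2-fold. This was Etv1, an FGF-induced ETS factor, at 15.7 CPM (12.1 to 20.0) in members and 41.0 CPM in the counterparts. Fgfr1 was at 42.4 and 62.9 CPM, and Fgfr3 at 80.2 and 93.3 CPM. Of 18 identity genes 16 were lower, with a median of -0.29, among them Nes (177 against 230 CPM) and Fabp7 (504 against 649 CPM). Of 20 late radial glia genes 13 were lower and 7 higher, a share near that of all genes. Zbtb20, a repressor linked to late cortical progenitors and astrocytes, was at 18.6 against 53.8 CPM, while Hopx was at 129 against 102 CPM and Nfia at 465 against 477 CPM.

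The genes highest in members over glial-gate counterparts had small ratios. Gadd45g stood at 66.0 against 38.9 CPM, Lmo4 at 70.4 against 43.2 CPM and Fezf2, the subcerebral neuron determinant, at 70.4 against 46.9 CPM. Ddx39a, Hist1h2bq, Tshz1, Eif4ebp1, H4f3, Igfbpl1 and Spc24 followed, with log2 ratios from 0.51 down to 0.35; that of Eif4ebp1 (0.41) turned to -0.29 with the rule on thinned cells. Replication genes did not separate the groups (7 higher and 19 lower of 26, median -0.06, none past 2-fold).

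Members labelled E16 were then set beside interphase radial glia of the other libraries, where library and cell state cannot be told apart. Of 5706 genes, 203 (3.56%) differed 2-fold or more from the 270 late interphase radial glia labelled E18, 30 (0.526%) higher in members and 173 (3.03%) lower. Against the 105 late interphase radial glia labelled E14, 722 of 5866 genes (12.3%) did so, 165 (2.81%) higher and 557 (9.5%) lower. Against the 86 Hmga2-zero counterparts labelled E18, which met the same glial gate as members, it was 318 of 5648 (5.63%), 92 (1.63%) higher and 226 (4%) lower. That count of 318 was 822 with 0 glial UMIs and 114 with the rule on thinned cells. The 3 comparisons share the members, so they are not independent of each other. The median over all genes was -0.14, -0.21 and -0.10 in that order, and scaling on the median ratio moved it to near 0.

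Ccnd1 was among the 10 highest genes of members against each of the 3 groups. It was at 239 CPM (225 to 255) in members, 47.6 CPM (40.5 to 55.6) in late cells labelled E18, 34.6 CPM (25 to 46.6) in late cells labelled E14, and 38.3 CPM in Hmga2-zero counterparts labelled E18. The log2 ratios were 2.31, 2.76 and 2.61. Neurons were low everywhere, at 4.88, 0.897 and 1.36 CPM of Ccnd1 in the libraries labelled E16, E14 and E18. At 3000 UMIs a cell, Ccnd1 was found in 13.0% (9.20 to 17.6) of late cells labelled E18, against 50.6% of members. The other D cyclin of progenitors, Ccnd2, did not follow: it was at 356 CPM in members, 568 CPM in late cells labelled E18 and 113 CPM in those labelled E14.

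The list of early progenitor genes was split: 6 higher and 6 lower of 12 against late cells labelled E18 (median -0.01), 5 higher and 7 lower against Hmga2-zero counterparts labelled E18 (-0.04), and 9 higher and 4 lower of 13 against late cells labelled E14 (0.30). Over all genes of at least 5 CPM, 3389 of 9603, 3960 of 9604 and 3555 of 9827 were higher in that order. Single genes were higher in members. Plagl1, an imprinted zinc finger regulator, was at 105 CPM in members, 32.5 CPM in late cells labelled E18, 22.5 CPM in late cells labelled E14 and 28.7 CPM in Hmga2-zero counterparts labelled E18. Lrrn1, a leucine-rich repeat membrane protein, was at 108, 50.6, 16.1 and 47.9 CPM in the same groups. Hmga1 was at 332, 192, 57.1 and 181 CPM, and Igf2bp1 at 25, 8.43, 4.83 and 9.58 CPM. Among the heterochronic genes of at least 5 CPM, 5 of 6 were higher than in late cells labelled E18 (median log2 ratio 0.63, between 0.36 and 0.79 under other settings) and 5 of 6 higher than in those labelled E14 (1.33, between 0.36 and 1.51). Igf2bp3, at 49.3 CPM in members and 51.2 CPM in late cells labelled E18, was the exception there.

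For some genes the neurons of each library differed in the same order as the progenitors. Crabp2, a carrier of retinoic acid, was at 132 CPM in members, 40.7 CPM in late cells labelled E18 and 10.5 CPM in late cells labelled E14, while neurons of those libraries held 172, 33.4 and 9.63 CPM. At 3000 UMIs it was seen in 36.9% of members and 39.4% of neurons labelled E16, so its share in members is not read as expression particular to them. Lef1, the Wnt effector, was at 252, 184 and 40.2 CPM in those progenitors and at 104, 53.2 and 27.6 CPM in the neurons. Cntnap2, at 81.4 against 21.4 CPM in late cells labelled E18, reached 950 CPM in neurons labelled E16. The part of library background in these values was not tested.

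Genes of late radial glia were lower in members than in the late groups. Of 21 such genes 16 were lower than in late cells labelled E18, 8 of them 2-fold or more, with a median log2 ratio of -0.80, where 6214 of all 9603 genes of at least 5 CPM were lower, 449 of them 2-fold or more. Against late cells labelled E14, 25 of 27 were lower, 18 of them 2-fold or more, with a median of -2.51, where 6272 of all 9827 genes were lower, 1222 of them 2-fold or more. Against Hmga2-zero counterparts labelled E18, 12 of 21 were lower with a median of -0.36, beside 5644 of 9604 over all genes, and the median came as near to 0 as -0.01 under other settings. The late groups were chosen for glial genes, and these counts are given as descriptions.

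Zbtb20 ran from 18.6 CPM (14.7 to 23.3) in members to 190 CPM in late cells labelled E18 and 349 CPM in late cells labelled E14, and was at 123 CPM in Hmga2-zero counterparts labelled E18. Its neurons held 25.5, 58.7 and 87.2 CPM in the libraries labelled E16, E18 and E14. Mfge8, a milk-fat globule protein made by late radial glia and astrocytes, was at 65.2 CPM in members, 264 and 628 CPM in the late groups and 209 CPM in the Hmga2-zero counterparts, with neurons at 9.47 CPM or less in each library.

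Nuclear factor I genes were lower in members than in both late groups. Nfix was at 56.4 CPM in members against 212 and 284 CPM in late cells labelled E18 and E14, Nfia at 465 against 939 and 876 CPM, and Nfib at 546 against 1068 and 987 CPM. Neurons held more Nfix than progenitors did, at 119 CPM labelled E16, 494 CPM labelled E18 and 701 CPM labelled E14. Tnc, tenascin C, and Bcan, brevican, are matrix genes of older radial glia. Each had 0 UMIs in members, which makes Tnc at least 186-fold and Bcan at least 159-fold lower than in late cells labelled E14, at 137 and 117 CPM. Placing each gene of the list that had 0 UMIs in members at its bound left the list medians at -2.51 (labelled E14) and -0.80 (labelled E18).

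**Figure D3:**
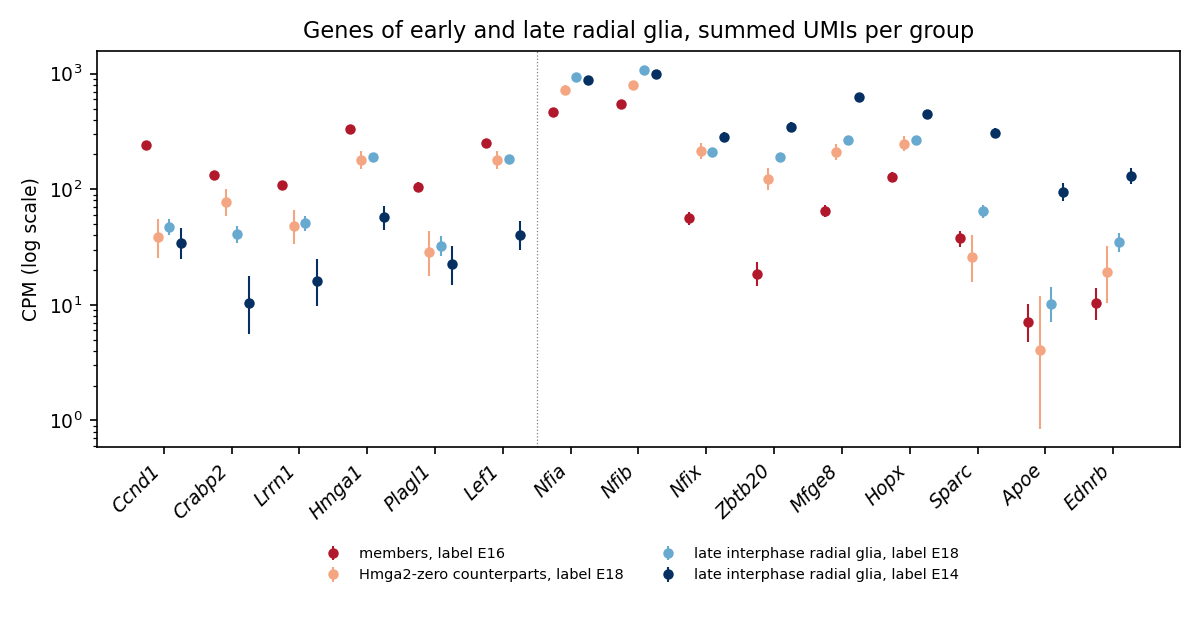
CPM on a log scale (vertical axis) of 6 single genes shown as early (left of the dotted line) and 9 late genes in members labelled E16 and in 3 groups of the other libraries. Bars are exact 95% Poisson intervals for counting error. The 6 genes do not stand for the list of early progenitor genes. Against late cells labelled E18 that list was split, 6 higher and 6 lower of 12 (median log2 ratio -0.01). It had 5 higher and 7 lower against Hmga2-zero counterparts labelled E18 (-0.04). Against late cells labelled E14 it had 9 higher and 4 lower of 13 (0.30). Ccnd1 lies at 239 CPM in members and between 34.6 and 47.6 CPM in the other groups, and Zbtb20 at 18.6 CPM against 123 to 349 CPM.

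The rest of the genes named by size filled in these comparisons. Against late cells labelled E18 the highest were also Gsto1, Fjx1, Birc5, Cks2 and H1f5 (log2 ratios 1.20 to 0.93), and the lowest Dok5, Gpm6b, Ncam1, Mfap4, Setbp1, Vps37b, Khdrbs3 and Pmepa1 (-3.43 to -1.93). Against late cells labelled E14 the highest were also Pclaf, Fbxo5, Ptgr1 and Cks2 (2.60 to 2.10), and the lowest Insm1, Atp1b1, Acot1, Gpm6b, Acadl, Limch1 and Apoe (-4.84 to -3.56). Against Hmga2-zero counterparts labelled E18 the highest were also Fbxo5, Ccne1, Ung, Pclaf, Fjx1, Rad51ap1, Fbln1 and Gsto1 (2.11 to 1.29). With the rule on thinned cells Fbxo5 was at 0.82, Ccne1 at 0.87, Ung at 0.43, Pclaf at 0.76 and Rad51ap1 at 0.10. The lowest there were Ttr, Sst, Maf, Dcx, Nsg2, Stmn2, Ina, Gpm6b and Ncam1 (-6.86 to -2.62). Without cells that held 3 or more UMIs of other classes, Sst had 0 UMIs in both groups, Stmn2 had a ratio of -0.46, and Maf (0.87) and Ina (0.36) turned. At a mitochondrial maximum of 5% the ratio of Stmn2 was -0.10 and that of Dcx -0.81. Of the 1044 Ttr UMIs in those counterparts 94.6% came from 1 cell, and they held 1404 CPM of excitatory neuron and 204 CPM of GABAergic markers.

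Cell cycle genes set the members apart from some of these groups and not from others. All 26 replication genes were higher than in late cells labelled E14 (median 0.95, 10 past 2-fold) and than in Hmga2-zero counterparts labelled E18 (0.71, 7 past 2-fold). Against late cells labelled E18 the median was 0.08, with 17 higher and 9 lower and none past 2-fold. Mcm6 was at 339 CPM in members, 357 CPM in late cells labelled E18 and 245 CPM in late cells labelled E14. Mitotic genes other than those of the rule were higher than in late cells labelled E18 for 21 of 23 (median 0.35, between 0.27 and 0.49 under other settings but 1.37 with the rule on thinned cells) and than in late cells labelled E14 for 19 of 22 (0.69). Against Hmga2-zero counterparts labelled E18, 8 of 23 were higher and 15 lower (-0.42, and 0.11 with the rule on thinned cells). Over all genes of at least 5 CPM, 3389 of 9603, 3555 of 9827 and 3960 of 9604 were higher in these comparisons.

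FGF response genes were lower in members than in either late group, 7 of 8 with a median of -0.56 for late cells labelled E18 and 8 of 9 with a median of -1.21 for those labelled E14, beside 6214 of 9603 and 6272 of 9827 lower over all genes. Against Hmga2-zero counterparts 3 were higher and 3 lower for label E18 (median -0.02), and 5 of 6 higher for label E16 (0.25), where the median was -0.09 with the rule on thinned cells. Over all genes 3960 of 9604 were higher for label E18 and 5551 of 9443 for label E16. Etv5 was at 5.15 CPM in members against 14.2 and 51.5 CPM, and Etv1 at 15.7 against 44.0 and 117 CPM. Radial glia identity genes were lower for 16 of 18 against late cells labelled E18 (median -0.45), with Nes at 177 against 382 CPM and Sox9 at 218 against 433 CPM. Wnt genes were split, 5 higher and 5 lower of 10. Axin2, a feedback target of Wnt signalling, was at 40.9 against 28.9 CPM and Wnt8b at 24.8 against 10.5 CPM, whereas Wnt7a was at 13.7 against 28.6 CPM and Sfrp1 at 955 against 1262 CPM.

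The 7 members labelled E18 held 61969 UMIs in all, so 3 UMIs of a gene amount to 48.4 CPM and only abundant genes can be read. Hmga2 had 9 UMIs in them and Sox2 39 UMIs. Ccnd1 and Plagl1 had 0 UMIs each, which allows up to 48.4 CPM, below the 239 CPM and 105 CPM of members labelled E16. Nfix had 20 UMIs, or 323 CPM (197 to 498), and Mfge8 15 UMIs, or 242 CPM (135 to 399), both above the 56.4 and 65.2 CPM of members labelled E16, with intervals that hold the 212 and 264 CPM of late cells labelled E18. Gadd45g had 25 UMIs, or 403 CPM (261 to 596), and Neurog2 23 UMIs, or 371 CPM (235 to 557), against 66.0 and 115 CPM in members labelled E16. Insm1, a factor of intermediate progenitors, had 10 UMIs against 11 UMIs in all 336 members labelled E16. Intermediate progenitor markers summed to 613 CPM in the 7 cells, but 3 cells held 3 or more of these UMIs and 1 cell held 20, so these values may rest on few cells.

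Members labelled E16 covered a wide range of replication gene levels. At 3000 UMIs a cell, the 26 replication genes summed to a median of 14 UMIs (quartiles 9 and 18), from 0 in the lowest cell to 29 in the highest. Mitotic counterparts had a median of 9, Hmga2-zero counterparts 10 and glial-gate counterparts 14. Members were split by this sum into 118 cells at 11 or below, 123 cells up to 17 and 95 cells above, with 40 cells exactly at a boundary. Median depth was 10540, 12055 and 12145 UMIs in that order.

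Genes outside the replication list followed that split to different extents. Cdk1 was at 46.0, 94.2 and 136 CPM from the low to the high group and Ccne1 at 52.5, 96.1 and 116 CPM. Cdc20, an activator of the anaphase-promoting complex, ran the other way, at 99.9, 41.8 and 16.1 CPM. Cdkn1c, a CDK inhibitor of cell cycle exit, was at 15.3 CPM (9.48 to 23.4) in the low group and 3.92 and 6.79 CPM in the others. Neurog2, the proneural factor, was at 126, 131 and 82.3 CPM (66.8 to 100). Hmga2 was nearly level at 204, 208 and 244 CPM, and so was Ccnd1 at 215, 249 and 255 CPM.

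**Figure D4:**
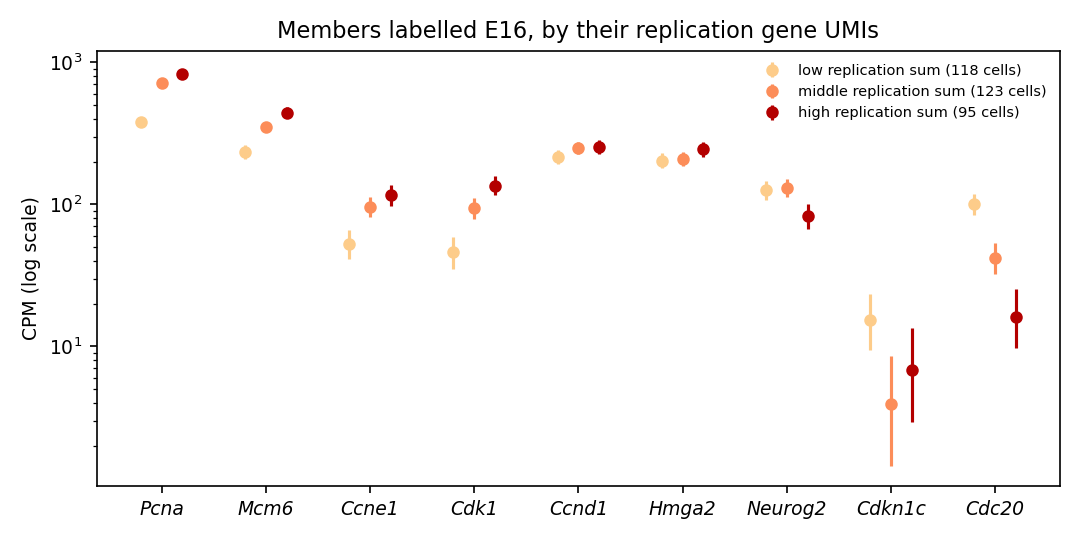
CPM on a log scale (vertical axis) of 9 genes in members labelled E16, split by their summed replication UMIs at 3000 UMIs a cell into 118, 123 and 95 cells; bars are exact 95% Poisson intervals for counting error. Pcna (381 to 823 CPM) and Mcm6 belong to the list that made the split; Cdk1 increases from 46.0 to 136 CPM, Cdc20 decreases from 99.9 to 16.1 CPM, and Hmga2 stays between 204 and 244 CPM.

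Members were also set out by their Hmga2 UMIs, a value the rule used, so the levels that follow are descriptions. After thinning to 3000 UMIs, 178 members had 0 Hmga2 UMIs, 115 had 1 and 43 had 2 or more. Ccnd1 was at 221, 245 and 303 CPM (257 to 355) in these groups and Pax6 at 113, 149 and 153 CPM. Hmga1 was flat at 338, 328 and 313 CPM. Replication genes summed to 4565, 4705 and 5062 CPM, FGF response genes to 298, 324 and 407 CPM, Wnt genes to 1430, 1530 and 1614 CPM, BMP and Id genes to 1824, 1877 and 2025 CPM, Sonic hedgehog genes to 392, 465 and 491 CPM, and heterochronic genes to 638, 678 and 677 CPM. Mitotic genes summed to 812, 922 and 708 CPM and retinoic acid genes to 311, 334 and 276 CPM. Across the 336 members, Spearman correlations between Hmga2 and the sums of 8 gene lists, or between 2 lists, lay between -0.17 and 0.10 for all 36 pairs, over cells of 1 library and sparse counts at 1 depth.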

How the data were processed

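Each library was a 10x Genomics Single Cell 3′ v3.1 preparation, per the labels' protocols. The deposited matrices hold raw UMI counts per gene and barcode, made by the authors with Cell Ranger 6.0.1 on rat build mRatBN7.2, per the submitters' processing notes; the annotation is not given in the sources used here. Of 29772 features, 87.9% had a symbol in the RefSeq table of build GRCr8, from which the promoters came.

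Cells with at least 1000 genes and at most 10% mitochondrial UMIs were kept, and the gates were applied to raw counts. Doublets were left in. As an alternative, the highest Scrublet scores (Scanpy 1.11.5) were removed at 0.8% per 1000 cells, which took out 2 members; the caller's own threshold marked 0.0193% of cells labelled E16 and so had not worked there. Counts were summed over the cells of a group and library and given as CPM. Ratios are log2 of CPM with 1 CPM added, which understates changes of low genes. Genes needed a mean of 20 CPM over both groups to be counted past 2-fold, and 5 CPM in a list. The genes named by size are the 10 highest and 10 lowest of at least 50 CPM, leaving out the 18 rule genes and mitochondrial, ribosomal, globin, sex-linked and unnamed genes. Shares of cells were taken after thinning to 3000 UMIs. Poisson (levels) and Clopper-Pearson (shares) 95% intervals cover counting error only.

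The members, the 20 gene lists (417 symbols, 3 absent from the files) and the comparisons were chosen with earlier results of these data known. Of the 6 comparisons, 2 were planned, and the other 4 were chosen after the cell numbers were seen. Values of 2 genes, and 1 added alternative that rests on one of them, are not reported here. The scripts were tested on simulated data. Figures were drawn with matplotlib 3.10.9, and values computed with scipy 1.17.1, numpy 2.4.6 and pandas 2.3.3 under Python 3.11.15.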

Additional observations from a re-analysis of the deposited data

Results flagged for a closer look

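In the library labelled E16, 10 of 1514 barcodes outside the cell filter met every gene gate of the rule. They had a median of 2585.5 UMIs, and 8 of them were over the mitochondrial maximum. The same count was 2 in the library labelled E18 and 0 in that labelled E14. These barcodes entered no value of the report.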

How the results depend on the processing

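The share of members labelled E16 (6.47%) was 7.94% at a mitochondrial maximum of 5%, 4.26% with at least 2 Hmga2 UMIs, 3.24% with 0 glial UMIs, 5.78% with the rule on cells thinned to 5000 UMIs and 8.05% without cells holding 3 or more UMIs of other classes. The share labelled E18 (0.123%) was 0.0351% with at least 2 Hmga2 UMIs, 0.0527% with 0 glial UMIs and 0.238% on thinned cells. Counts past 2-fold moved with the CPM minimum by construction, since it sets how many genes are tested. At the higher and the lower minimum they were 85 and 247 over mitotic counterparts, 20 and 312 over Hmga2-zero counterparts labelled E16, 8 and 66 over glial-gate counterparts, 119 and 1052 over Hmga2-zero counterparts labelled E18, 85 and 554 over late cells labelled E18, and 291 and 1637 over late cells labelled E14. With 10 CPM added they were 24, 9, 179, 115 and 451 in that order, leaving out mitotic counterparts. Against Hmga2-zero counterparts labelled E16 the count (46) was also 109 with 0 glial UMIs, 16 on thinned cells, 25 without other classes and 70 with globin, mitochondrial and ribosomal genes out of the totals. Against glial-gate counterparts (14) it was also 62 on thinned cells, 8 without cells of over 1000 globin UMIs and 25 by the mean of cell CPM. Against Hmga2-zero counterparts labelled E18 (318) it was also 822 with 0 glial UMIs and 114 on thinned cells; the cause was not tested. The direction of Mt1 over Hmga2-zero counterparts labelled E16 (-1.22) turned to 0.33 without other classes and 0.36 without globin-rich cells. Over Hmga2-zero counterparts labelled E18, Maf turned to 0.87 and Ina to 0.36 without other classes. The settings on other classes and globin-rich cells were added after seeing the data. No paired analysis was possible because each label has 1 library. Depth limits the 7 members labelled E18 most, where 3 UMIs are 48.4 CPM.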
